A study of Homo sapiens with 12 samples.

Results

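The genes described here encode substrate adaptors of the cullin-RING ubiquitin ligases. They are the F-box genes named FBXL, FBXO and FBXW, and the BTB-domain genes named KLHL, KBTBD and KCTD. They were chosen by symbol, together with a minimum of 10 counts in at least 3 of the 12 libraries. Of 131 such symbols in a table of 26334 genes, 96 met the minimum: 15 FBXL, 29 FBXO, 7 FBXW, 22 KLHL, 7 KBTBD and 16 KCTD genes. All 96 were among the 12775 genes tested.

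The libraries came from shA673-1c, a derivative line of the Ewing sarcoma cell line A673 with an inducible hairpin against EWS::FLI1, the fusion gene that drives this tumour. The cells of every group were kept in 1 µg per ml doxycycline over 4 days to lower EWS::FLI1, and were then given 5 µM actinomycin D, which blocks transcription. Polyadenylated RNA was sequenced at 0, 1, 2 and 4 h of actinomycin D, with 3 biological replicates at each time. Cells that never saw doxycycline were not analysed here. The knockdown itself was thus not checked, and each mRNA is followed within 1 line in the knockdown state.

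A cullin-RING ligase is assembled from a cullin scaffold, a RING protein that brings the ubiquitin-loaded enzyme, and an exchangeable adaptor that holds the substrate. F-box proteins join CUL1 through SKP1, and the class letter names the rest of the protein: leucine-rich repeats (FBXL), WD40 repeats (FBXW) or other domains (FBXO). KLHL, KBTBD and many KCTD proteins use a BTB domain to join CUL3. The adaptors decide which proteins are degraded, among them cyclins, clock proteins and signalling regulators, so the lifetime of an adaptor mRNA bears on how quickly the adaptor itself can be replaced.

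Levels are given as CPM, read counts set to a common library size after TMM scaling, and each difference is a log2 change from edgeR's quasi-likelihood test over all 12775 genes, called at a Benjamini-Hochberg adjusted p under 0.05. Library totals lay between 9381855 and 10929000 counts. Because transcription is blocked and no spike-in is part of the table, every value compares an mRNA with the rest of its library. A higher value can mean slower loss than average, and fewer cells cannot be told apart from less RNA per cell. The adaptor mRNAs together took 0.325% ± 0.0036 of all counts at 0 h. The share was 0.307% ± 0.0024 after 1 h, 0.283% ± 0.0018 after 2 h and 0.238% ± 0.0011 after 4 h (SD, n = 3 each). Their summed share was thus smaller at each later time, by more than the spread between replicates.

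Of the Ewing sarcoma markers, VIM averaged 6337 CPM, CCND1 518 CPM, EWSR1 258 CPM and FLI1 13.5 CPM over the libraries, while CD99 was listed at 0. Whether the annotation used for counting held CD99 was not given, so this 0 may be no measurement. Of 19 markers of other cell types, 17 averaged under 1 CPM, 4 of them with no count (CD3E, INS, MYH6 and TTR). Their summed level was 22.4 to 32.4 CPM at 0 h, 16.6 to 30.6 CPM after 1 h, 18.3 to 24.8 CPM after 2 h and 13.2 to 21.2 CPM at 4 h. Without the haemoglobin gene HBB the sum stayed between 3.87 and 6.88 CPM, so HBB accounted for most of it. HBB averaged 10.6 ± 3.73 CPM at 4 h and 22.6 ± 4.35 CPM at 0 h (SD, n = 3 each), a fall (log2 -1.10, SE 0.28, adjusted p = 0.00631) whose part in the results was not tested.

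At 0 h the adaptor mRNAs spanned 0.129 to 42.4 CPM per kb of transcript, with a median of 5.29 CPM per kb. On this per-length scale KCTD10 (42.4 ± 2.44), KCTD20 (40.2 ± 3.41), FBXW5 (34.5 ± 3.66), KCTD5 (34.4 ± 5.2) and FBXL5 (32.5 ± 4.87) led at 0 h (CPM per kb, SD, n = 3), and neighbours in that order lay within their spread. KCTD12 (0.129 CPM per kb) and FBXO32 (0.174 CPM per kb) were lowest. FBXO32, or atrogin-1, is a marker of muscle wasting. In all, 87 of the 96 genes had at least 10 counts in all 12 libraries, and none met the minimum through 1 time alone. FBXL13 and FBXO43 were just inside the minimum, each with 10 counts in 3 libraries, and among the 35 symbols outside it FBXO48 reached 12 counts and FBXO2, KLHL31 and KLHL41 reached 10 counts in their highest library.

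After 4 h of actinomycin D, 46 of the 96 adaptor mRNAs were lower than at 0 h (47.9%), where 24.6% of all tested genes were lower. Another 13 were higher (13.5%), where 23.3% of all tested genes were higher, and 37 did not pass the threshold. With the replicate number as a block 54 were lower and 17 higher, where 30.8% and 34.8% of all tested genes were. The median log2 change was -0.33 over the adaptors (SD 0.068 over 3 replicates), against 0.05 over all tested genes. The falls were the larger changes: 28 adaptors fell by more than 2-fold, 10 by more than 4-fold and 3 by more than 8-fold. No adaptor rose by more than 2-fold and 1, KCTD13, rose by more than 1.5-fold. Among all 12775 tested genes, 1455 fell and 105 rose by more than 2-fold, so larger falls than rises were not particular to the adaptors. In each of the 46 genes that fell, all 3 libraries at 4 h lay below all 3 at 0 h, and in each of the 13 that rose they lay above. Such separation largely goes with a call and was not counted over all tested genes, so it adds no separate support.

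**Figure D1:**
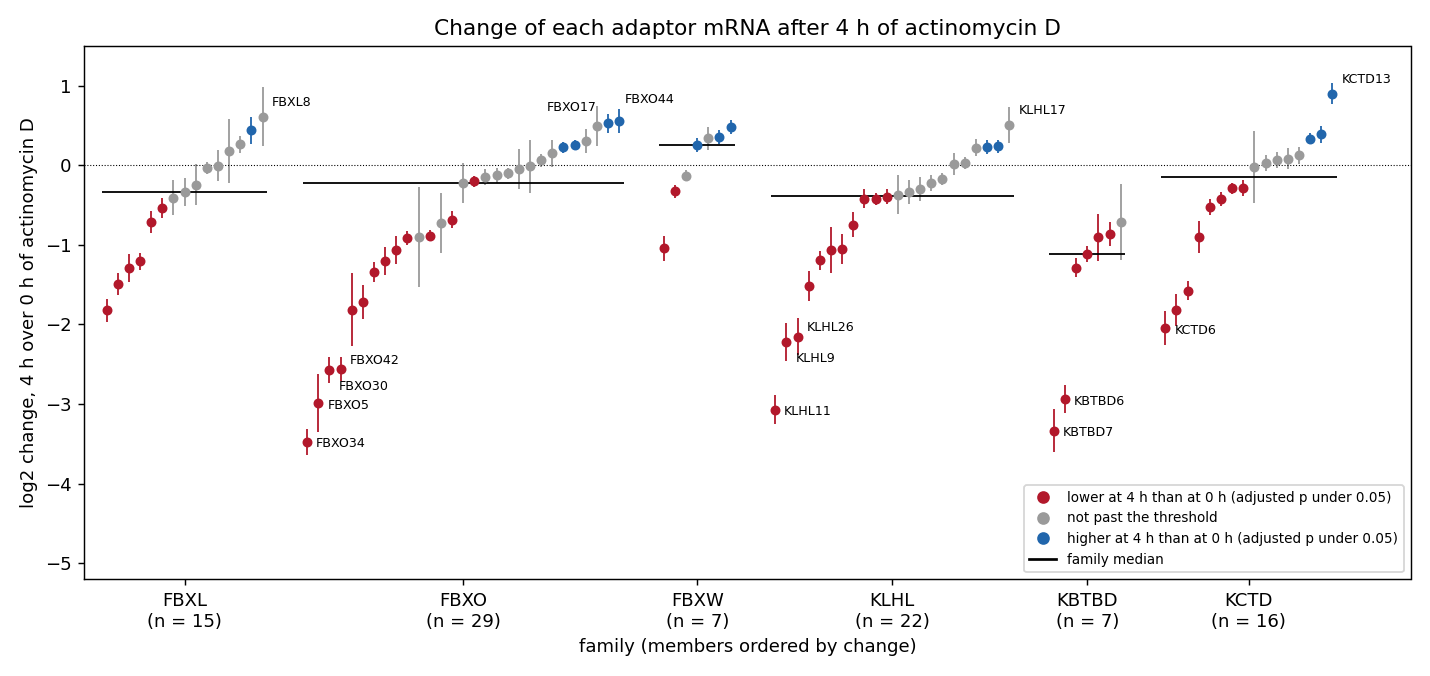
Log2 change at 4 h over 0 h of actinomycin D for the 96 adaptor mRNAs, grouped by family on the x axis; points are edgeR estimates, bars their standard errors, colours the call and black lines the family medians. The falls reach -3.47 (FBXO34) and the rises stop at 0.90 (KCTD13). The KBTBD family has 6 falls among 7 genes, too few to set against the 24.6% of all tested genes that fell.

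Most calls of a rise were lost under other scalings, each of which moved the values at 4 h down. With library totals in place of TMM the median of all tested genes shifted by -0.15, and with scaling on 79 ribosomal protein mRNAs by -0.37. All 46 falls remained calls under both, but a shift down deepens a fall, so these scalings could not put the falls to a test. Of the 13 rises, 4 remained under library totals (FBXO17, FBXW5, KCTD13 and KCTD9) and only KCTD13 remained under ribosomal scaling. A scaling moves all genes nearly alike, so the adaptors' median set against that of all tested genes stayed at -0.39 under each of the 4.

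FBXO34 had the deepest fall of the F-box genes. Its level was 27.2, 28.7 and 27.1 CPM at 0 h, 18.2, 15.8 and 17.8 CPM at 1 h, 7.54, 4.86 and 7.05 CPM at 2 h, and 2.72, 2.41 and 2.33 CPM at 4 h. Neighbouring times did not overlap. The fall at 4 h was 11.1-fold (log2 -3.47, SE 0.16, adjusted p = 6.04e-09). FBXO46, a related gene, had 3.40, 1.88 and 2.97 CPM at 4 h, against 7.74, 9.14 and 10.2 CPM at 0 h, a 3.29-fold fall (log2 -1.72, SE 0.21, adjusted p = 2.65e-05).

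FBXO5 encodes EMI1, an inhibitor of the anaphase-promoting complex that lets cyclins accumulate before mitosis. It was measured at 21.8, 32.8 and 51.6 CPM at 0 h, 15.0, 17.7 and 31.3 CPM at 1 h, 6.95, 6.68 and 10.8 CPM at 2 h, and 4.65, 4.08 and 4.67 CPM at 4 h. The replicates were far apart at 0 h, with replicate 3 highest, and close together at 4 h. The fall of 7.93-fold at 4 h (log2 -2.99, SE 0.37, adjusted p = 2.60e-05) was larger than that spread. CCNF, whose product cyclin F is another cell-cycle F-box protein, was at 8.16, 8.78 and 9.12 CPM at 4 h, against 20.7, 22.2 and 29 CPM at 0 h (log2 -1.46, SE 0.14, adjusted p = 2.85e-06). SKP2, the F-box protein that targets the cell-cycle inhibitor p27, was at 37.6, 41.9 and 43.7 CPM at 4 h, against 43.2, 43.1 and 36.6 CPM at 0 h, and did not pass the threshold (log2 0.01, SE 0.09, adjusted p = 0.960).

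FBXO30, known in mouse muscle as MUSA1, and FBXO42 fell to similar extents. FBXO30 was at 5.55, 3.87 and 4.88 CPM at 4 h, against 31.2, 30.5 and 23.2 CPM at 0 h (log2 -2.57, SE 0.16, adjusted p = 6.81e-08). FBXO42 was at 8.95, 5.02 and 6.15 CPM at 4 h, against 40.8, 37.7 and 39.8 CPM at 0 h (log2 -2.56, SE 0.15, adjusted p = 3.33e-08). The groups did not overlap in either gene. FBXO32 also fell (log2 -1.81, SE 0.46, adjusted p = 0.00577), but its levels were low, at 0.453, 0.209 and 0.318 CPM at 4 h, against a mean of 1.17 CPM at 0 h, and 4 libraries held 10 counts or more.

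FBXO11, an adaptor for the transcription factor BCL6, moved less but with little spread. It was at 46.0, 44.6 and 47.4 CPM at 4 h, against 85.9, 80.8 and 87.6 CPM at 0 h, a 1.84-fold fall (log2 -0.88, SE 0.06, adjusted p = 2.30e-07). Exons of FBXO11 overlap MSH6 on the other strand by up to 1469 bases. FBXO21 fell by 0.20 on the log2 scale (SE 0.07, adjusted p = 0.0243), a call lost when replicate 1 or 2 at 0 h or at 4 h was left out. In total 13 of 29 FBXO genes fell and 4 rose, beside 24.6% and 23.3% of all tested genes. The family median was -0.23.

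The risers among the FBXO genes included FBXO44 and FBXO17, which belong to the subfamily with a sugar-recognition domain, and FBXO18, a helicase with an F-box. FBXO44 stood at 18.4, 15.1 and 20.9 CPM at 4 h, against 12.3, 11.6 and 13 CPM at 0 h (log2 0.56, SE 0.15, adjusted p = 0.00963). Its exons overlap those of FBXO2 on the other strand by up to 207 bases, and FBXO2 had at most 10 counts in a library. Whether the counting used strand was not given. FBXO17 stood at 24.5, 26.9 and 28.4 CPM at 4 h, against 17.9, 19.7 and 17.7 CPM at 0 h (log2 0.53, SE 0.12, adjusted p = 0.00273). FBXO6, of the same subfamily, was not past the threshold (log2 0.49, SE 0.25, adjusted p = 0.119). FBXO18 stood at 121, 115 and 116 CPM at 4 h, against 98.5, 101 and 96.1 CPM at 0 h (log2 0.25, SE 0.06, adjusted p = 0.00608), and turned to -0.12 under ribosomal scaling.

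Among the 15 FBXL genes 6 fell and 1 rose, beside 24.6% and 23.3% of all tested genes. The family median was -0.34. FBXL5 senses iron and oxygen through a hemerythrin domain and controls the iron regulatory protein IRP2. It was at 49.2, 52.2 and 33.7 CPM at 4 h, against 115, 124 and 91.6 CPM at 0 h (log2 -1.29, SE 0.18, adjusted p = 6.65e-05). FBXL14, linked to the turnover of Snail, was at 3.17, 3.14 and 3.18 CPM at 4 h, against 8.03, 8.96 and 9.78 CPM at 0 h (log2 -1.49, SE 0.14, adjusted p = 2.36e-06). FBXL18 fell 2.31-fold (log2 -1.21, SE 0.11, adjusted p = 1.30e-06), and FBXL19 was not called (log2 -0.03, SE 0.08, adjusted p = 0.765). FBXL6 was called higher (log2 0.44, SE 0.17, adjusted p = 0.0455), a call that was lost under 13 of 21 alternatives, 8 of which left out a library, among them each library at 0 h. Exons of FBXL6 overlap SLC52A2 on the other strand by up to 635 bases.

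Of the 7 FBXW genes 2 fell and 3 rose, numbers too small to set against the 24.6% and 23.3% of all tested genes. The family median was 0.26, and it turned to -0.12 under ribosomal scaling. FBXW7, a tumour suppressor that targets cyclin E and MYC, was at 21.0, 16.9 and 18.7 CPM at 0 h, 13.6, 13.5 and 15.1 CPM at 1 h, 10.7, 7.69 and 11.3 CPM at 2 h, and 8.61, 8.16 and 10.6 CPM at 4 h. Its fall at 4 h was 2.06-fold (log2 -1.04, SE 0.16, adjusted p = 0.00013). The estimate at 2 h was already -0.93, and levels at 2 and 4 h overlapped. A slower late loss was called only with the replicate number as a block. FBXW5 was at 118, 105 and 106 CPM at 4 h, against 69.0, 81.3 and 84.9 CPM at 0 h (log2 0.48, SE 0.09, adjusted p = 0.0007). FBXW4 rose (log2 0.35, SE 0.09, adjusted p = 0.00457) but turned to -0.019 under ribosomal scaling. FBXW2 was not called (log2 -0.13, SE 0.07, adjusted p = 0.143), but was a fall with the replicate number as a block.

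FBXW11 and BTRC encode the paralogous beta-TrCP proteins, which target beta-catenin and I-kappa-B. FBXW11 was at 58.7, 60.8 and 54.3 CPM at 4 h, against 72.0, 73.2 and 73.1 CPM at 0 h (log2 -0.33, SE 0.08, adjusted p = 0.00369). BTRC, whose symbol lies outside the rule, was at 30.9, 26.8 and 26.1 CPM at 4 h, against 43.3, 47.0 and 47.1 CPM at 0 h (log2 -0.72, SE 0.08, adjusted p = 9.81e-06). Counts of FBXW11 over those of BTRC in the same library, a ratio that no scaling can change, were 1.90, 2.27 and 2.08 at 4 h, against 1.66, 1.56 and 1.55 at 0 h. The 3 ratios at 4 h were thus above those at 0 h.

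Among the BTB adaptors, 6 of 7 KBTBD genes fell and none rose, numbers too small to set against the 24.6% and 23.3% of all tested genes. The family median was -1.11, over 7 genes only. KBTBD7 was at 5.38, 5.94 and 7.49 CPM at 0 h, 3.83, 3.21 and 4.43 CPM at 1 h, 1.76, 1.62 and 1.74 CPM at 2 h, and 0.340, 0.732 and 0.742 CPM at 4 h. KBTBD6, which acts with KBTBD7 in a CUL3 ligase for the Rac activator TIAM1, was at 24.6, 26.0 and 21.6 CPM at 0 h, 17.2, 16.8 and 19.2 CPM at 1 h, 13, 11.1 and 10.7 CPM at 2 h, and 2.61, 2.51 and 4.24 CPM at 4 h. Both declined at every step without overlap between 1, 2 and 4 h. The log2 changes at 4 h were -3.34 (SE 0.27, adjusted p = 6.00e-07) for KBTBD7 and -2.94 (SE 0.18, adjusted p = 4.37e-08) for KBTBD6. The size of the fall of KBTBD7 rests on few counts at 4 h.

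KBTBD2, linked in mouse to insulin signalling through the p85-alpha subunit, and KBTBD4 fell less. KBTBD2 was at 21.9, 18.2 and 25.7 CPM at 4 h, against 57.6, 51.5 and 51.0 CPM at 0 h (log2 -1.28, SE 0.12, adjusted p = 1.63e-06). KBTBD4 was at 32.5, 30.3 and 33.2 CPM at 4 h, against 69.1, 63.3 and 75.4 CPM at 0 h (log2 -1.11, SE 0.10, adjusted p = 2.24e-06), and its exons overlap PTPMT1 on the other strand by up to 1265 bases. KBTBD11 fell 1.82-fold (log2 -0.87, SE 0.15, adjusted p = 0.000472). KBTBD8, the gene that did not pass, had 10 counts in 7 libraries.

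**Figure D2:**
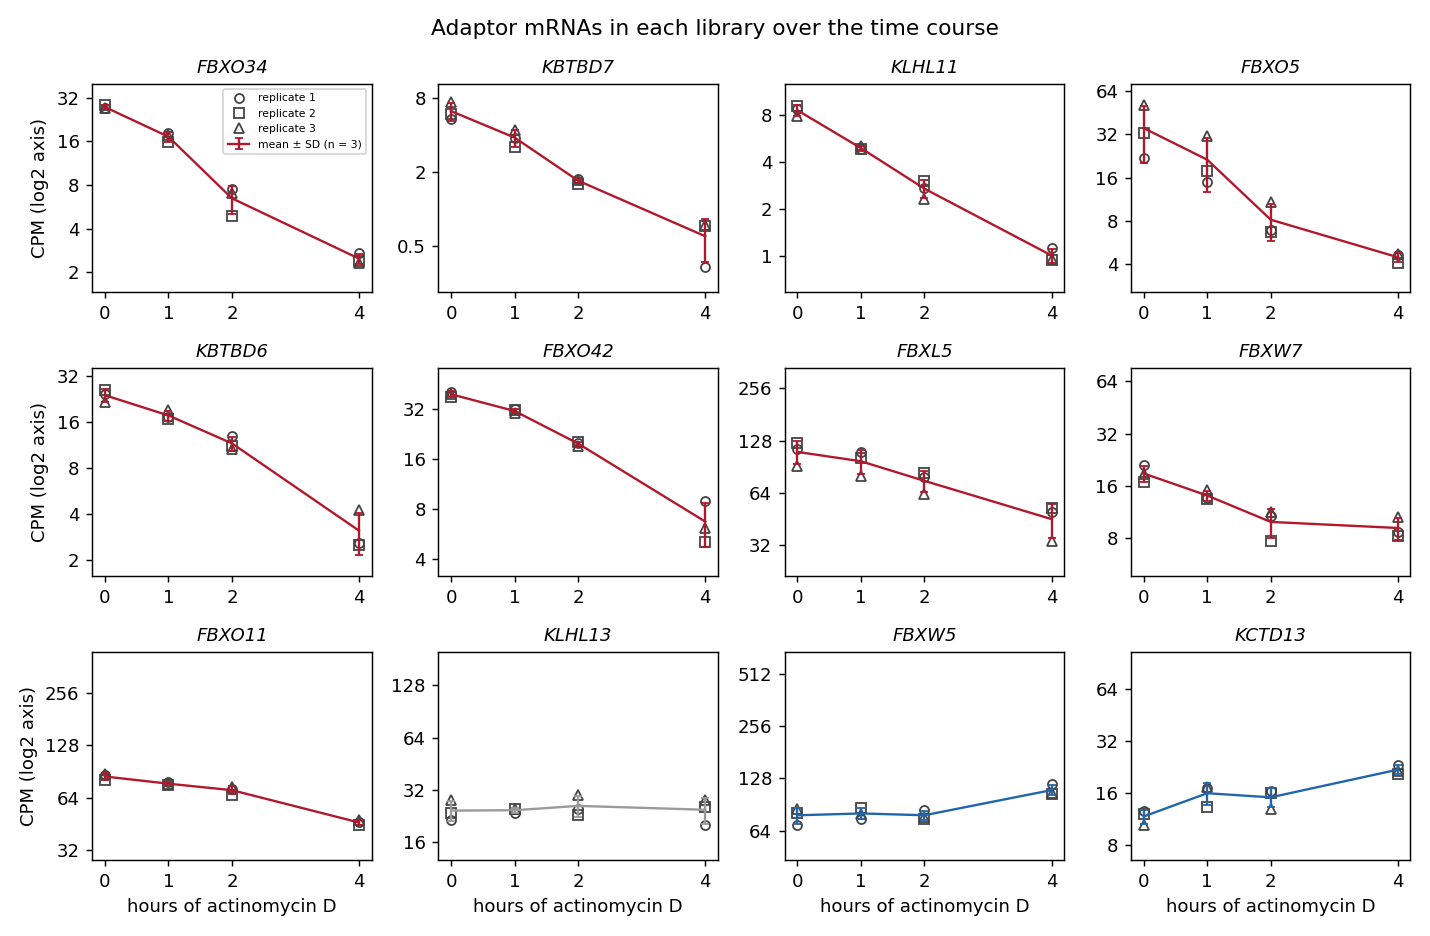
CPM (log2 axis) against hours of actinomycin D for 12 adaptor mRNAs; open symbols are replicates 1, 2 and 3 and lines join means ± SD (n = 3), red for genes that fell at 4 h, blue for genes that rose and grey for a gene not past the threshold. FBXO34, KBTBD7 and KLHL11 decline at every time, FBXW7 mostly before 2 h, and KLHL13 stays near its level at 0 h.

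Of the 22 KLHL genes 11 fell and 2 rose, beside 24.6% and 23.3% of all tested genes. The family median was -0.38. KLHL11 was at 8.78, 9.05 and 7.84 CPM at 0 h, 4.86, 4.81 and 5.04 CPM at 1 h, 2.74, 3.04 and 2.32 CPM at 2 h, and 1.13, 0.941 and 0.954 CPM at 4 h, with no overlap between times. Its fall at 4 h was 8.40-fold (log2 -3.07, SE 0.18, adjusted p = 3.77e-08). KLHL26 fell 4.44-fold (log2 -2.15, SE 0.24, adjusted p = 9.77e-06) and KLHL25, an adaptor for the translation repressor 4E-BP1, fell 2.86-fold (log2 -1.52, SE 0.19, adjusted p = 2.69e-05). KLHL20, which targets the kinase DAPK1, fell by 0.42 on the log2 scale (SE 0.12, adjusted p = 0.010).

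KLHL9 and KLHL13 encode closely related proteins that work together in a CUL3 ligase for Aurora B in mitosis, a substrate that KLHL21 shares. KLHL9 was at 3.63, 4.5 and 6.04 CPM at 4 h, against 28.3, 21.5 and 16.6 CPM at 0 h (log2 -2.22, SE 0.24, adjusted p = 8.93e-06). KLHL13 was at 20.1, 25.4 and 28.1 CPM at 4 h, against 21.5, 23.5 and 27.8 CPM at 0 h (log2 0.02, SE 0.14, adjusted p = 0.934). Counts of KLHL9 over those of KLHL13 in the same library were 0.181, 0.177 and 0.215 at 4 h, against 1.32, 0.916 and 0.597 at 0 h, a log2 change of the ratio of -2.24 (SD 0.71 over 3 replicates). KLHL21 fell 2.29-fold (log2 -1.19, SE 0.12, adjusted p = 5.29e-06).

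The rises of KLHL5 (log2 0.24, SE 0.08, adjusted p = 0.0265) and KLHL29 (log2 0.23, SE 0.09, adjusted p = 0.0407) were small. They were lost under 8 and 17 of 21 alternatives, among them the omission of either replicate 1 or 2 at 0 h, and turned to -0.13 and -0.14 under ribosomal scaling. KLHL42 fell by 0.42 (SE 0.08, adjusted p = 0.00063), and KLHL7 was not called (log2 0.03, SE 0.07, adjusted p = 0.760).

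Of the 16 KCTD genes 8 fell and 3 rose, beside 24.6% and 23.3% of all tested genes. The family median was -0.15. KCTD6, KCTD11 and KCTD21 encode the KCASH proteins, CUL3 adaptors that lower HDAC1 and restrain Hedgehog signalling, and all 3 mRNAs fell. KCTD6 was at 1.93, 1.57 and 2.02 CPM at 4 h, against 6.89, 7.92 and 8.02 CPM at 0 h (log2 -2.05, SE 0.22, adjusted p = 6.91e-06). KCTD11 was at 3.85, 3.03 and 3.82 CPM at 4 h, against 13.5, 12.5 and 11.8 CPM at 0 h (log2 -1.82, SE 0.20, adjusted p = 1.24e-05). KCTD21 was at 7.82, 5.96 and 7.95 CPM at 4 h, against 21.3, 23.2 and 20.2 CPM at 0 h (log2 -1.57, SE 0.12, adjusted p = 4.27e-07). These were the 3 largest falls of the family, followed by KCTD1, a repressor of AP-2 factors (log2 -0.90, SE 0.20, adjusted p = 0.00232).

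KCTD13 and KCTD10 encode paralogous BACURD proteins, CUL3 adaptors for the GTPase RhoA, and they moved in opposite directions. KCTD13 was at 12.6, 12.2 and 10.5 CPM at 0 h, 17.1, 13.4 and 17.5 CPM at 1 h, 16.4, 16.1 and 13 CPM at 2 h, and 23.4, 20.7 and 21.5 CPM at 4 h. Each of its libraries at a later time was above all 3 at 0 h. Its change at 4 h was 1.86-fold (log2 0.90, SE 0.13, adjusted p = 0.000129). KCTD10 was at 147, 144 and 141 CPM at 4 h, against 182, 182 and 165 CPM at 0 h (log2 -0.29, SE 0.07, adjusted p = 0.0037). Counts of KCTD13 over those of KCTD10 were 0.159, 0.143 and 0.153 at 4 h, against 0.0690, 0.0667 and 0.0637 at 0 h, a log2 change of the ratio of 1.19 (SD 0.080 over 3 replicates). Exons of KCTD13 overlap ASPHD1 on the other strand by up to 230 bases.

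KCTD2, KCTD5 and KCTD17 form another group of close relatives, of which KCTD5 binds G-protein beta-gamma subunits. KCTD17 rose (log2 0.39, SE 0.11, adjusted p = 0.00885), KCTD5 was not called (log2 0.08, SE 0.13, adjusted p = 0.629) and KCTD2 fell by 0.42 (SE 0.08, adjusted p = 0.00116). Counts of KCTD17 over those of KCTD2 were 0.906, 0.773 and 0.877 at 4 h, against 0.435, 0.504 and 0.512 at 0 h. KCTD20 was not called (log2 0.06, SE 0.10, adjusted p = 0.640) and KCTD3 fell by 0.28 (SE 0.10, adjusted p = 0.0299), a call lost without replicate 3 at 0 h or replicate 1 or 3 at 4 h. The 4 within-library ratios in this text were formed with the genes' changes known, so no test was made of them.

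Fewer adaptors had changed at the earlier times. At 1 h, 2 genes had fallen (2.08%), where 1.16% of all tested genes had. These were KLHL11 (log2 -0.80, SE 0.14, adjusted p = 0.0145) and FBXO34 (log2 -0.68, SE 0.13, adjusted p = 0.0207). No adaptor rose by edgeR's quasi-likelihood test at 1 h, where 0.172% of all tested genes did. At an unadjusted p under 0.05, 12 were lower and 1 higher, and DESeq2 called 2 lower and 0 higher. With the replicate number as a block 10 were lower and 1 higher, where 6.28% and 2.52% of all tested genes were. Both calls were lost without any 1 of the 3 libraries at 1 h or without replicate 1 or 2 at 0 h.

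At 2 h, 23 adaptors had fallen (24%), where 11.7% of all tested genes had, and all 23 were also lower at 4 h. The other 23 falls at 4 h were not called at 2 h. Falls above 2-fold numbered 9 at 2 h, where 526 of the 12775 tested genes had such falls. The deepest were FBXO5 (log2 -2.12, SE 0.34, adjusted p = 0.000739), FBXO34 (log2 -2.09, SE 0.14, adjusted p = 1.01e-06), KBTBD7 (log2 -1.87, SE 0.22), KLHL11 (log2 -1.66, SE 0.15) and FBXO46 (log2 -1.21, SE 0.20). KCTD9 alone was higher (1.04%), where 3.39% of all tested genes were. It was at 81.4, 85.5 and 78.9 CPM at 2 h, against 67.2, 71.6 and 64.2 CPM at 0 h (log2 0.28, SE 0.07, adjusted p = 0.0199), a call lost without replicate 1 or 3 at 0 h or replicate 2 at 2 h. With the replicate number as a block, 38 were lower and 10 higher at 2 h, where 19.5% and 15.9% of all tested genes were.

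**Figure D3:**
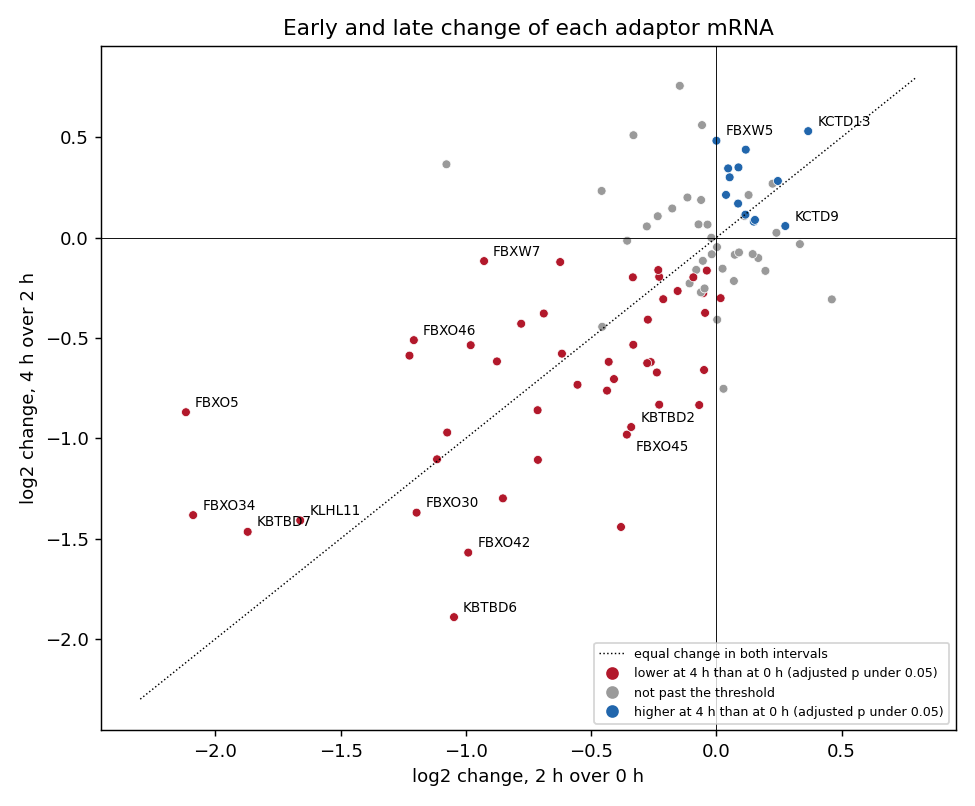
Log2 change of each adaptor mRNA at 2 h over 0 h (x axis) and at 4 h over 2 h (y axis), coloured by the call at 4 h over 0 h; the dotted line marks equal change in both intervals of 2 h. FBXO5, FBXO34 and FBXW7 lie above the line, with the larger part of their fall before 2 h, and KBTBD6 and FBXO42 lie below it.

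Whether loss slowed or sped up was read from the change of rate, in which the early log2 step (0 to 2 h) is subtracted from the late one (2 to 4 h). No adaptor passed the threshold in either direction by edgeR, where 0.227% of all tested genes were lower and 0.384% higher. At an unadjusted p under 0.05, 11 were lower and 5 higher, and DESeq2 called 1 lower and 0 higher. With the replicate number as a block 13 were lower and 4 higher, where 5.46% and 7.39% of all tested genes were. Without the block KBTBD2 was at -0.60 (SE 0.19) and FBXO11 at -0.36 (SE 0.11). These and KBTBD6 passed only with the block, on the lower side. FBXO5 (1.25, SE 0.64), FBXW7 (0.81, SE 0.28) and FBXW5 (0.48, SE 0.16) did not pass without the block. In the edgeR fit with the block they were at 1.23, 0.81 and 0.48 and passed on the higher side (adjusted p = 0.0045, 0.0119 and 0.00912).

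The adaptors were then set against features of their transcripts that the choice of genes did not use, from GENCODE v29 on GRCh38. All 96 were matched, 1 of them, FBXO18, through an older symbol, as were 12016 of the 12775 tested genes. The change went with the number of coding exons and with the density of exon junctions. Of the 23 adaptors with 1 to 3 coding exons, 21 fell and 0 rose, with a median log2 change of -1.52. Of the 73 with 4 or more, 25 fell and 13 rose, with a median of -0.17. The boundary was set after the values were seen, so no test was made of it.

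Among all tested genes, 46.6% of the 1876 with 1 to 3 coding exons fell at 4 h and 216 rose, with a median of -0.40. Of the 10140 with 4 or more, 21.1% fell and 2652 rose, with a median of 0.10. The adaptors with few exons thus included a higher share of falls (91.3%) than genes with few exons in general, and so did those with more (34.2%). Few-exon genes were 24% of the adaptors and 15.6% of all tested genes. The 6 KBTBD genes that fell had 1 to 3 coding exons and KBTBD8 had 4, so family and exon number cannot be told apart there. Those with a single coding exon were FBXO34, FBXO46, KBTBD6, KBTBD7, KBTBD11, KLHL9, KLHL25, KCTD11, KCTD21 and KCTD12, and of these KCTD12 alone, with 10 counts in 5 libraries, did not pass. Among all tested genes, 60.0% of the 627 with a single coding exon fell, with a median of -0.76. The 28 adaptors that fell more than 2-fold had a median of 3 coding exons, and the 13 that rose had a median of 9 and at least 5. The median over the 12016 matched genes was also 9, so the risers had an ordinary number.

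**Figure D4:**
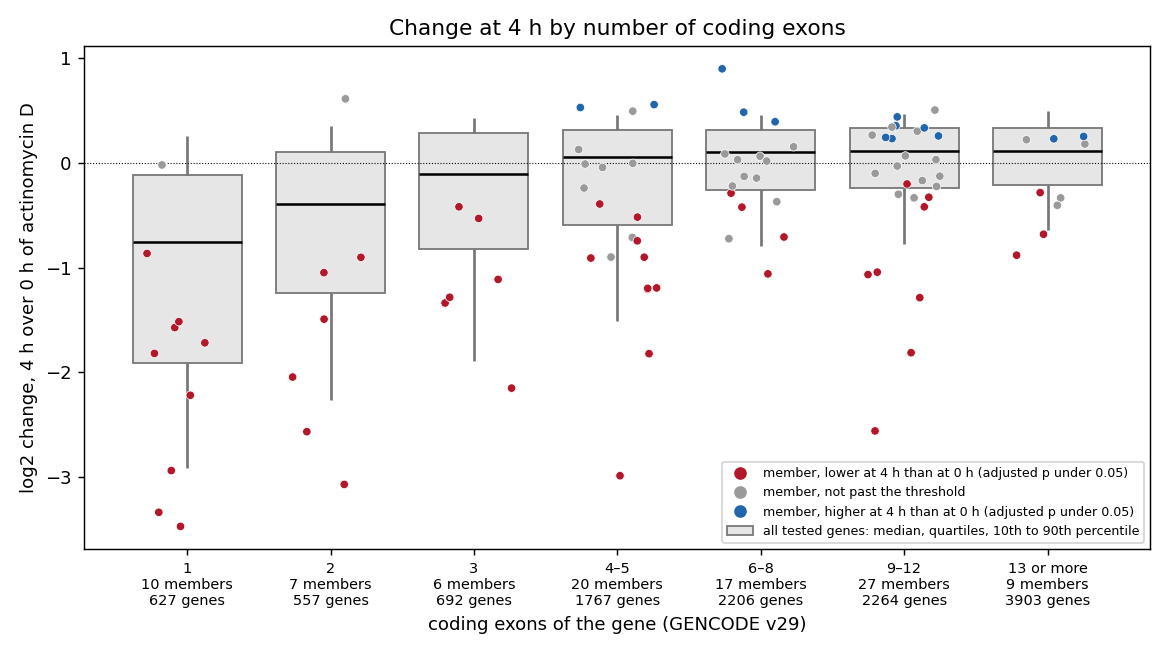
Log2 change at 4 h over 0 h against the number of coding exons in GENCODE v29; points are the 96 adaptors coloured by call, and boxes give the median, quartiles and 10th to 90th percentiles of the 12016 tested genes with a match. Adaptors with 1 to 3 coding exons lie almost entirely below 0, and all 13 risers have 5 or more.

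Across the 96 adaptors the Spearman correlation of the log2 change at 4 h was 0.51 with the number of coding exons, 0.60 with exon junctions per kb of coding sequence, -0.24 with coding length, -0.25 with 3′ UTR length and 0.24 with mean CPM. Across the 12016 genes the same values were 0.21, 0.43, -0.13, -0.25 and 0.20. Genes are not independent replicates, they share the 12 libraries, and these values describe this table alone. Within the sister pairs, KLHL9 has 1 coding exon and KLHL13 has 7, KCTD13 has 6 and KCTD10 has 7, and KCTD2 has 6 and KCTD17 has 8. Exons that overlap a gene on the other strand were annotated for 38 of the 96.

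The 3′ UTRs were also searched on the transcribed strand for the AU-rich heptamer TATTTAT, a letter pattern typical of short-lived mRNAs, which holds the pentamer ATTTA. It occurred in 39 of 96 adaptors (40.6%), and in 33.9% of the 12016 genes. Among the adaptors it was in 9 of the 28 that fell more than 2-fold, in 8 of 18 with smaller falls, in 18 of 37 not past the threshold and in 4 of 13 that rose. The adaptors' median log2 change was -0.33 with the heptamer and -0.37 without it, with median 3′ UTR lengths of 2641 and 1094 bases. Over all tested genes with a match the medians were -0.06 with it and 0.12 without it. The longer TTATTTATT was in 8 adaptors (8.3%) and in 8.9% of the 12016 genes. The adaptors' medians were -0.0025 with it and -0.38 without it, and those of the 12016 genes -0.08 and 0.07. For the pentamer alone the adaptors' medians were -0.42 in the 79 that hold it and -0.0053 in the 17 that do not, whose 3′ UTRs had median lengths of 1891 and 503 bases. The 12016 matched genes went the same way, with medians of -0.013 with the pentamer and 0.24 without it. The Pumilio pattern TGTANATA occurred in 30.2% of the adaptors and 28.4% of all, with median log2 changes of -0.68 in adaptors that hold it and -0.24 in those that do not, whose 3′ UTRs had median lengths of 2370 and 1217 bases. For this pattern too the matched genes went the same way, with medians of -0.16 with it and 0.14 without it.

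The first heptamer after the stop codon is shown for 2 adaptors that fell and 3 that rose, to let the same letters be read in both. Capitals mark the heptamer, and sequence and positions are from GENCODE v29 on GRCh38, 5′ to 3′ on the transcribed strand. KBTBD6 (log2 -2.94) and KCTD6 (-2.05) fell, and KCTD13 (0.90), KLHL29 (0.23) and FBXO9 (0.23, adjusted p = 0.015) rose. The call for KLHL29 was lost under 17 of 21 alternatives. The sites of KCTD13 and KLHL29 also hold the longer TTATTTATT.
KBTBD6, 3′ UTR, chr13:41130241-41130269, minus strand: taagggtccagTATTTATttgattattta
KCTD6, 3′ UTR, chr3:58501729-58501757, plus strand: ttaaatagttgTATTTATttgaaggcagt
KCTD13, 3′ UTR, chr16:29906375-29906403, minus strand: ctgtttcatatTATTTATtattttaattt
KLHL29, 3′ UTR, chr2:23708236-23708264, plus strand: gtttttaatatTATTTATtattttaaaaa
FBXO9, 3′ UTR, chr6:53098095-53098123, plus strand: ttgcttaagcaTATTTATgttgtgagaaa
A match describes letters in the annotated transcript only, and binding was not measured.

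The remaining parts of the ligases were described by the same counts. Of 35 genes for the cullin scaffold and neddylation, the step that switches a cullin on, 9 fell and 15 rose at 4 h, beside the 24.6% lower and 23.3% higher of all tested genes, so the count of falls lay near the background. With the replicate block 9 fell and 20 rose. The list's median was 0.17, and -0.20 with ribosomal protein mRNAs as the scale. SKP1, which joins F-box proteins to CUL1, was at 355, 362 and 365 CPM at 4 h, against 274, 282 and 286 CPM at 0 h (log2 0.36, SE 0.05, adjusted p = 3.90e-05). RBX1, the RING subunit, rose (log2 0.34, SE 0.09, adjusted p = 0.00507), as did TCEB2, or elongin B (log2 0.63, SE 0.09, adjusted p = 9.06e-05). Under ribosomal scaling SKP1 was at -0.011 and RBX1 at -0.029.

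Of the cullin scaffolds CUL1, CUL2 and CUL3 fell, CUL7 and CUL9 rose, and CUL4A, CUL4B and CUL5 did not pass the threshold. With the replicate block CUL4A was called higher (log2 0.14, adjusted p = 0.0155). CUL1 was at 80.5, 70.7 and 66.4 CPM at 4 h, against 110, 122 and 112 CPM at 0 h (log2 -0.66, SE 0.08, adjusted p = 2.73e-05). CUL3 was at 91.8, 81.5 and 90.8 CPM at 4 h, against 127, 130 and 117 CPM at 0 h (log2 -0.50, SE 0.07, adjusted p = 9.16e-05). DCUN1D3, a membrane-bound neddylation factor, had the deepest fall of this list, to 2.83, 2.20 and 2.97 CPM at 4 h, against 13.8, 12.9 and 13.8 CPM at 0 h (log2 -2.34, SE 0.15, adjusted p = 7.53e-08).

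F-box and BTB adaptors whose symbols lie outside the rule were listed together with KLHDC2, KLHDC3 and KLHDC10, kelch-repeat genes with neither domain. This list gave 18 falls and 6 rises among 35 tested, with a median of -0.29, where 24.6% of all tested genes fell and 23.3% rose. KDM2A, a histone demethylase with an F-box, fell by 1.46 on the log2 scale (SE 0.08, adjusted p = 1.75e-08) and ABTB2 by 1.67 (SE 0.15, adjusted p = 1.26e-06). KEAP1, the CUL3 adaptor for NRF2, was at 79.8, 74.3 and 70.6 CPM at 4 h, against 90.7, 91.2 and 99.6 CPM at 0 h (log2 -0.33, SE 0.07, adjusted p = 0.00184). SPOP fell by 0.40 (SE 0.08, adjusted p = 0.00141).

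Adaptors of the other cullins gave 22 falls and 5 rises among 44 tested, with a median of -0.38, beside the same background. With the replicate block they gave 28 falls and 9 rises, where 30.8% of all tested genes fell and 34.8% rose. SPSB1, a CUL5 adaptor, was at 3.97, 4.39 and 4.77 CPM at 4 h, against 38.3, 37.0 and 39.2 CPM at 0 h (log2 -3.12, SE 0.11, adjusted p = 1.33e-09). FEM1C (log2 -2.73, SE 0.15, adjusted p = 2.29e-08) and FEM1B (log2 -2.31, SE 0.11, adjusted p = 8.15e-09), CUL2 adaptors that read the ends of proteins, fell as well, and so did AMBRA1, the adaptor for D-type cyclins (log2 -1.48, SE 0.08, adjusted p = 1.31e-08). Both outside lists thus had medians below 0, as the 96 adaptors did, and the scaffold list did not under TMM. The difference between the lists was not tested.

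**Figure D5:**
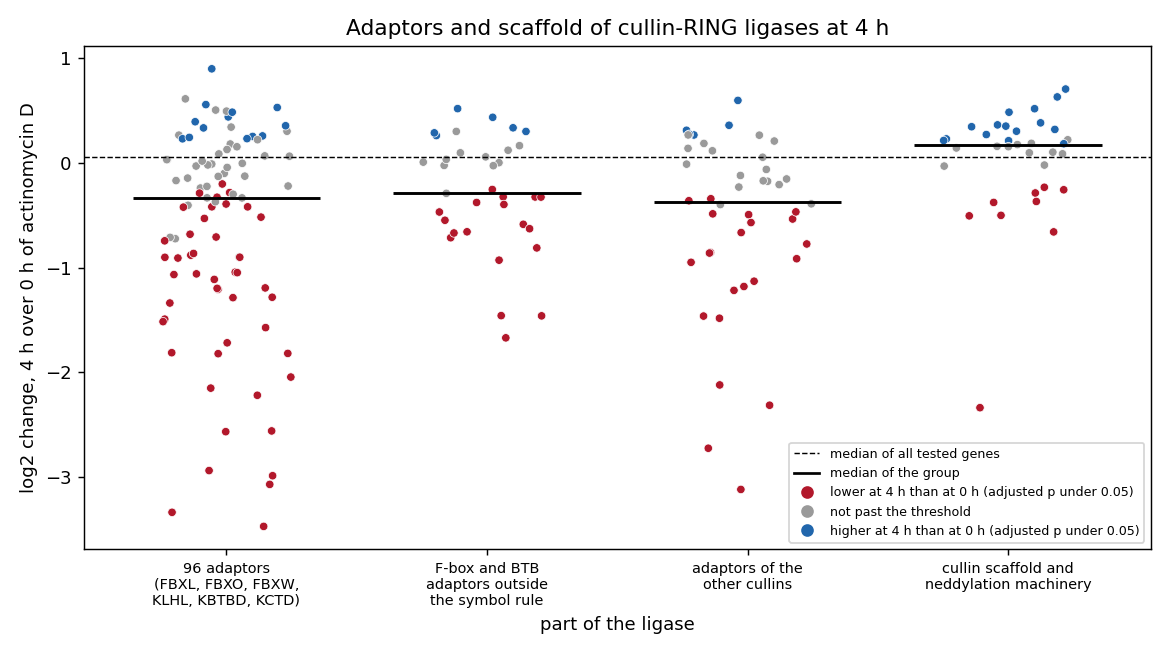
Log2 change at 4 h over 0 h for the 96 adaptors, 35 tested F-box, BTB and KLHDC adaptors outside the symbol rule, 44 tested adaptors of the other cullins and 35 scaffold and neddylation genes. Points are genes coloured by call, solid lines group medians and the dashed line the median of all tested genes. The 3 adaptor groups have medians of -0.33, -0.29 and -0.38, and the scaffold group has a median of 0.17.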

How the data were processed

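The authors deposited raw read counts per gene symbol for 12 polyA libraries that, per the labels' protocols, were prepared with a stranded TruSeq mRNA kit. The submitters' processing notes name FastQC, STAR and build hg19, with no versions. Counting program, annotation and use of strand are not given in the sources used here, so reads of genes that overlap on opposite strands may be shared.

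The deposited counts were tested in R 4.3.3 by edgeR 4.0.16: filterByExpr on the 4 times, TMM, and the quasi-likelihood test over all 12 libraries, with Benjamini-Hochberg adjustment over 12775 genes. Each SE was obtained by dividing the size of the log2 change by √F, F being the test statistic. The script was tested on simulated data with 200 changed genes. Alternatives were a replicate block, RLE, library totals, scaling on 79 ribosomal protein mRNAs, other filters, DESeq2 1.42.0, leaving out each library, and, chosen after seeing the data, leaving out replicate 3 throughout.

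The adaptors and gene lists were chosen with earlier results of these data known. Named genes were, per family, up to 4 falls and 2 rises at 4 h with a mean of at least 2 CPM and the 3 highest in CPM, the strongest calls at 1 and 2 h, a set of known adaptors, and 4 per list. Other genes, such as relatives of these, were chosen after their values were seen. The protein comparison in that rule could not be made, and 1 gene of that set is not reported here.

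The labels number the replicates 1 to 3 at each time. Deviations from the time means correlated at 0.263 to 0.649 between libraries of the same number and at -0.501 to 0.16 otherwise, so the numbers were taken to pair the libraries. The main fit left this pairing out. Among the fits, only the replicate block used it. No libraries were duplicates: the chi-square per degree of freedom between replicates was 4.35 or more. Replicate 3 stood apart at every time. Pairs with it gave 9.3 to 16.1, and pairs of replicates 1 and 2 gave 4.35 to 5.14. GENCODE v29 supplied 1 coding transcript per gene.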

Additional observations from a re-analysis of the deposited data

How the results depend on the processing

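Counts of adaptors lower and higher at 4 h against 0 h, 46 and 13, ranged from 44 to 46 and from 9 to 15 when 1 library was left out. Library totals left 4 higher and ribosomal scaling 1, and the members' median, -0.33, became -0.49 and -0.71 under these. With the replicate block, counts were 10 lower and 1 higher at 1 h, 38 and 10 at 2 h, and 13 and 4 in the change of rate, where DESeq2 gave 1 lower. Fitting only the times compared gave 1 lower at 1 h, and ribosomal scaling gave 36 lower and 0 higher at 2 h. Leaving out 1 library gave 0 to 2 lower at 1 h, 0 to 1 higher at 2 h and 0 to 1 lower in the change of rate. The scaffold list had 6 higher under library totals, and 14 lower and 2 higher under ribosomal scaling. Adaptors outside the rule had 1 and 0 higher under these scalings, and those of the other cullins 1 and 0, and 9 with the block. Adaptors with 4 or more coding exons had 4 higher under library totals, and 42 lower and 1 higher under ribosomal scaling. Ribosomal scaling reversed the log2 change at 4 h of FBXO18 (-0.12), FBXW4 (-0.019), KCTD20 (-0.31), KLHL5 (-0.13), KLHL29 (-0.14), KLHL7 (-0.34), KCTD9 (-0.040), SKP2 (-0.37), SKP1 (-0.011) and RBX1 (-0.029), since it moves every gene down by 0.37. Of 71 named results, 49 kept direction and call under all alternatives, and the cause of the other changes was not tested. Replicates 1 and 2 alone kept 44 of the 46 falls. Depth limits FBXO32, KBTBD8, KCTD12, FBXL13 and FBXO43, which had fewer than 10 counts in most or many libraries. It also limits KBTBD7 at 4 h, where the mean was 0.605 CPM.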
